A study of Mus musculus with 6 samples.

Results

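The genes described here encode the fatty acid oxidation machinery of the mouse liver, 35 genes taken by symbol out of 55385 in the count table. They comprise 17 mitochondrial and 10 peroxisomal genes, 3 whose products work in both organelles, 4 acyl-CoA synthetases that activate fatty acids, and Pdk4, a kinase that restrains pyruvate oxidation. Liver polyA RNA was sequenced from 3 VSG and 3 sham mice, all wild-type C57BL/6 males that were 6 to 8 weeks old when a high-fat diet (HFD) began. HFD was given for 10 weeks, vertical sleeve gastrectomy (VSG, removal of most of the stomach) or a sham operation followed, and HFD was continued in both groups for 12 more weeks. No lean or chow-fed livers were part of this comparison, so every difference is between operated animals that kept eating HFD. The libraries carry the numbers 1 to 3 (sham) and 4 to 6 (VSG), and whole liver pieces of approximately 40 mg were used, which contain all liver cell types. The comparison asks which oxidation genes differed after VSG, and whether mitochondrial and peroxisomal genes differed to the same extent.

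Fatty acids are oxidized in both organelles by a cycle of dehydrogenation, hydration, a further dehydrogenation and thiolysis. Long-chain acyl groups enter mitochondria as carnitine esters, and their electrons pass through electron transfer flavoprotein to the respiratory chain. Peroxisomes import very-long-chain, branched and dicarboxylic acyl-CoAs through ABC transporters, shorten them and pass the products on as carnitine esters. In the liver many of these genes are known targets of the nuclear receptor PPARα, which is active during fasting and when fatty acids are plentiful.

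Oxidation genes that passed the test were lower after VSG. At an adjusted p under 0.05 (edgeR, quasi-likelihood test, Benjamini-Hochberg over 14454 genes), 10 of the 35 genes were lower, against 7.87% of all genes tested. They were Cpt1a, Cpt2, Acads, Hadh, Eci1, Abcd2, Acaa1b, Pex11a, Crat and Pdk4. None was higher, against 6.79% of all genes tested. No gene of the 35 was higher at an unadjusted p under 0.05 in this test, nor by DESeq2 or limma-voom, while 22 were lower at that level. In 4 of the 12 alternatives (no filter beyond 1 count and without sham replicate 2, VSG replicate 4 or VSG replicate 5) 1 gene was higher at that level. Counts at an unadjusted p, here and below, have no share of all genes beside them and show no excess over it. The log2 fold change (VSG minus sham) was negative in 31 of 35 genes with a median of -0.74, beside 6885 of 14454 and a median of 0.03 over all genes. In 20 genes all 3 VSG libraries lay below all 3 sham libraries, an order that 19.8% of all genes tested showed. The opposite order occurred for 1 gene, Acox2, and for 19.8% of all genes tested. Both orders were read after the scaling described below. By total counts alone Hadha, Hadhb, Acaa2, Etfdh and Ech1 had all VSG libraries below all sham libraries too. Together the 35 genes took 1.34%, 1.57% and 1.57% of the counts in the sham libraries and 0.616%, 1.18% and 0.807% in VSG replicates 4, 5 and 6. The VSG shares were all below the lowest sham share.

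**Figure D1:**
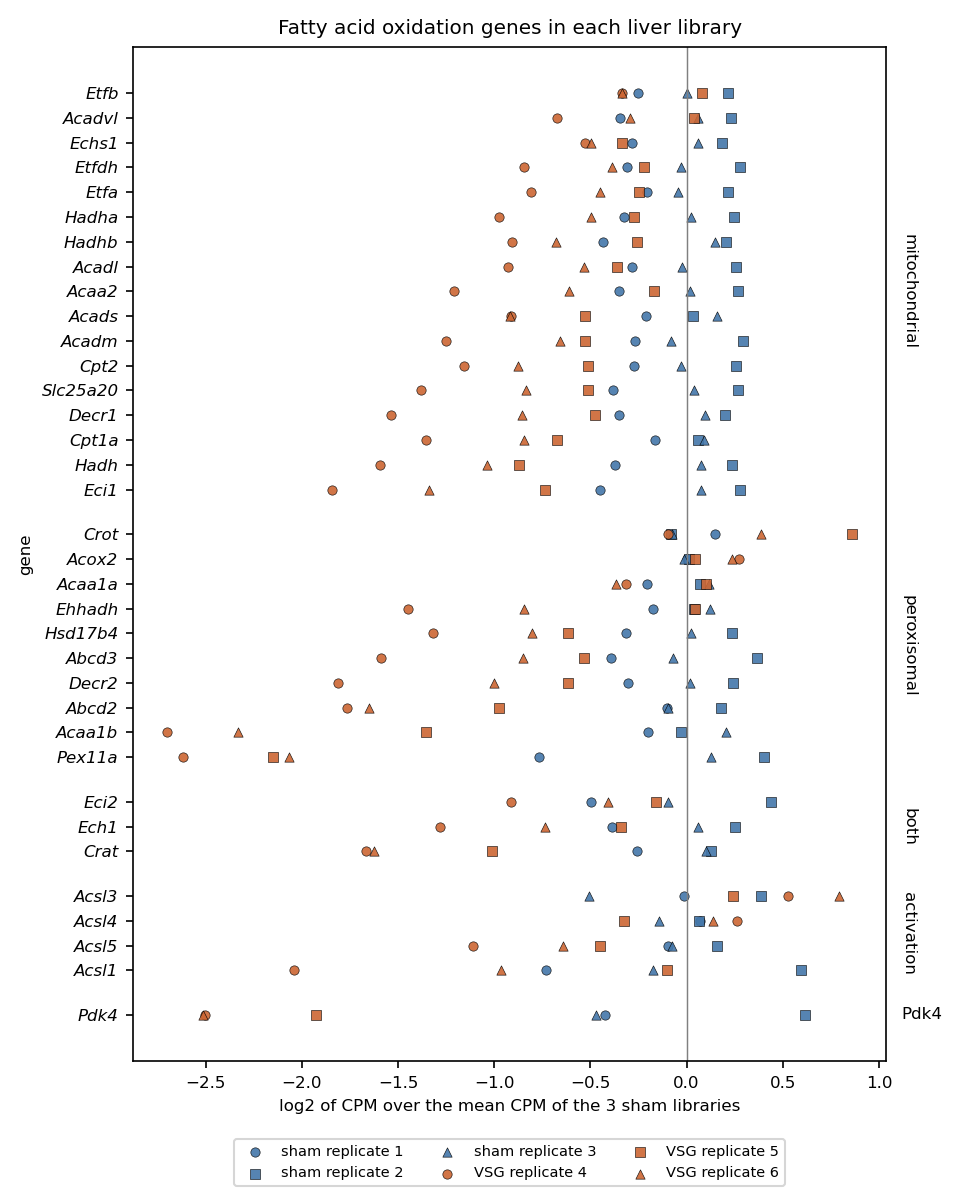
Each point is the log2 ratio of 1 library's CPM (counts scaled to library size) to the mean CPM of the 3 sham libraries, for the 35 genes grouped by compartment. VSG replicate 4 was the lowest VSG library in 29 of 35 genes and VSG replicate 5 the highest in 31.

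Total counts ran from 22804397 to 24191778 per library, and CPM values below are scaled by TMM factors. Of 8 hepatocyte markers (such as Alb and Ttr) none passed the test, with a median log2 fold change of -0.21 and summed levels of 63078 to 99874 CPM in sham livers and 46252 to 72122 CPM after VSG. All 14 neutrophil markers were higher after VSG (median log2 fold change 6.79), from summed levels of 3.88 to 17.0 CPM in sham to 1952, 166 and 898 CPM in VSG replicates 4, 5 and 6. Of 10 macrophage markers 4 were higher (352 to 672 CPM summed in sham, 697 to 1948 in VSG), and of 7 stellate cell markers 1 was lower (630 to 993 CPM in sham, 304 to 609 in VSG). All 7 had negative log2 fold changes, with a median of -1.22, and in 4 of them all VSG libraries lay below all sham libraries. Higher calls were made for 1 of 5 bile duct (57.6 to 253 CPM in sham, 73.4 to 199 in VSG, the other 4 with negative log2 fold changes and a list median of -0.76) and 2 of 6 lymphocyte markers (23.1 to 29.6 CPM in sham, 148 to 194 in VSG). No call was made for 6 sinusoidal endothelial markers (251 to 309 CPM in sham, 252 to 314 in VSG) or 5 erythroid markers (127 to 187 CPM in sham, 176 to 271 in VSG). Over all genes tested, 7.87% were called lower and 6.79% higher. Of 5 adipocyte markers, Adipoq, Plin1, Lep and Retn had 3 counts or fewer in every library. In whole tissue, fewer cells of a type and less RNA per cell cannot be told apart.

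The libraries of each group kept nearly the same order from gene to gene. The median log2 ratio of the 35 genes to the sham mean was -0.28, 0.23 and 0.02 in sham replicates 1, 2 and 3. It was -1.21, -0.36 and -0.74 in VSG replicates 4, 5 and 6. Sham replicate 1 was the lowest sham library in 30 genes and sham replicate 2 the highest in 28. VSG replicate 4 lay below the lowest sham library in 32 genes, replicate 5 in 21 and replicate 6 in 29. The VSG library with the lowest oxidation genes thus had the highest summed neutrophil markers, and the library with the highest oxidation genes had the lowest. The part of other cell types in the oxidation values was not tested. Without VSG replicate 4, 5 of the 35 genes were lower (3.95% of all genes in that fit), and without VSG replicate 5, 17 were (9.59%). Without sham replicate 1 the count was 7 (5.11%) and without sham replicate 2 it was 4 (3.31%). It was 0 without sham replicate 3 and 0 without VSG replicate 6, where 16 genes in each case were lower at an unadjusted p under 0.05. Leaving out those libraries also took the share of all genes called lower to 0.748% and 0.812%.

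Among the activating enzymes, which join fatty acids to coenzyme A, none of 4 passed the test. Acsl1, the main long-chain acyl-CoA synthetase of liver, was at 1025, 2577 and 1509 CPM in sham replicates 1, 2 and 3 and at 414, 1590 and 874 CPM in VSG replicates 4, 5 and 6. Its sham libraries spread widely and VSG replicate 5 lay among them, so the groups overlapped. The log2 fold change of -0.83 ± 0.54 (SE) had an adjusted p of 0.313 in edgeR. Acsl5, found on mitochondria and the endoplasmic reticulum, had no overlap between groups (356 to 425 CPM in sham, 176 to 278 in VSG) and an adjusted p of 0.0533 in edgeR, just outside the threshold. With all libraries it was called by DESeq2 (adjusted p = 0.00576) and in edgeR with total counts (0.0282) or no filter beyond 1 count (0.0397). It was also called in edgeR without VSG replicate 5 (0.0329). Acsl3, a lipid droplet enzyme, and Acsl4, which prefers arachidonic acid, had log2 fold changes of 0.54 and 0.05, the latter changing sign under other settings (-0.10 with total counts).

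Of 3 carnitine shuttle genes, 2 were lower after VSG. Cpt1a (chr19:3322334-3385733, plus strand, mm10), the outer-membrane carnitine palmitoyltransferase that sets the rate of mitochondrial entry, was at 1114, 1297 and 1328 CPM in sham replicates 1, 2 and 3 and at 488, 782 and 693 CPM in VSG replicates 4, 5 and 6. Every VSG library lay below every sham library. Cpt1a was 1.90-fold lower, a log2 fold change of -0.93 ± 0.22 (SE, adjusted p = 0.0356, edgeR). Cpt2 (chr4:107903981-107923610, minus strand), which returns the acyl group to coenzyme A inside the mitochondrion, stood at 155, 224 and 184 CPM in sham livers and 84.0, 131 and 102 CPM after VSG. Its groups did not overlap either, and the log2 fold change was -0.82 ± 0.21 (SE, adjusted p = 0.0437, edgeR). Slc25a20, the inner-membrane carnitine/acylcarnitine carrier between these enzymes, had a log2 fold change of -0.87 and an adjusted p of 0.0662 in edgeR with no overlap (141 to 220 CPM in sham, 70.4 to 128 in VSG). With all libraries it was called by DESeq2 (adjusted p = 0.0125) and in edgeR with total counts (0.0324) or no filter beyond 1 count (0.0358). Without VSG replicate 5 its adjusted p was 0.0358 in edgeR. Leaving out any library other than VSG replicate 5 ended the calls of Cpt1a and Cpt2, at adjusted p-values of 0.0634 (without VSG replicate 4) to 0.136 (without sham replicate 3) for Cpt1a. For Cpt2 they ran from 0.0557 (without sham replicate 1) to 0.141 (without VSG replicate 6). Cpt1b, the muscle isoform, was not tested, with 0.386 ± 0.039 CPM in sham livers and 0.302 ± 0.078 CPM after VSG (SD, n = 3).

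Of the 4 acyl-CoA dehydrogenases, which take the first step of the mitochondrial cycle for chains of different length, only the short-chain enzyme passed the test. Acads (chr5:115110299-115119346, minus strand) was at 117, 139 and 152 CPM in sham replicates 1, 2 and 3 and at 72.2, 94.2 and 72.1 CPM in VSG replicates 4, 5 and 6. The groups were separate and the log2 fold change was -0.77 ± 0.16 (SE, adjusted p = 0.0260, edgeR). Acadm, the medium-chain enzyme, had 405, 598 and 462 CPM in sham livers and 205, 339 and 310 CPM after VSG. The groups were separate here as well, with a log2 fold change of -0.78 of nearly the size of Acads but a larger SE of 0.24 (adjusted p = 0.0720, edgeR). Acadl and Acadvl, for long and very long chains, had log2 fold changes of -0.59 and -0.28, and Acadvl libraries overlapped (299 to 446 CPM in sham, 238 to 391 in VSG). DESeq2 called Acadm (adjusted p = 0.0135) and Acadl (0.0371) too, as did edgeR with total counts (0.0305 and 0.0395). Dvl2 lies opposite 42.9% of the exon bases of Acadvl, with 806 counts over all libraries beside 49296 for Acadvl. The call of Acads ended when sham replicate 2 or 3 was left out (adjusted p = 0.0721 and 0.112) and when VSG replicate 4 or 6 was (0.0628 and 0.0983).

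In the remaining steps of the mitochondrial cycle the enzyme of medium and short chains passed the test. Hadh (chr3:131233419-131272101, minus strand), the 3-hydroxyacyl-CoA dehydrogenase of the matrix, was at 433, 659 and 590 CPM in sham replicates 1, 2 and 3. It fell to 186, 306 and 273 CPM in VSG replicates 4, 5 and 6. All VSG values were below the lowest sham value, and Hadh was 2.20-fold lower (log2 fold change -1.14 ± 0.24 SE, adjusted p = 0.0301, edgeR). Hadha, the alpha subunit of the trifunctional protein for long chains, was at 449, 666 and 570 CPM in sham livers and 286, 465 and 397 CPM after VSG. VSG replicate 5 lay above sham replicate 1. Scaled by total counts alone the groups of Hadha were separate (514, 616 and 621 CPM in sham libraries, 278, 463 and 357 CPM after VSG). Its log2 fold change was -0.55 ± 0.23 (SE, adjusted p = 0.148, edgeR), and that of the beta subunit Hadhb was -0.59. Per length, Hadhb was listed at 6.32 ± 1.43 FPKM (CPM divided by summed exon length in kilobases) and Hadha at 64.3 ± 12.5 FPKM in sham livers (SD, n = 3), although the subunits form one complex. Of Hadhb's 50-base words, 4.42% occur in other genes. Echs1, the short-chain hydratase, and Acaa2, the matrix thiolase, had log2 fold changes of -0.45 and -0.60 and did not pass. Without sham replicate 2 or 3 or VSG replicate 4 or 6 the call of Hadh ended, at adjusted p-values of 0.0807, 0.120, 0.0547 and 0.0978.

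The auxiliary enzymes of unsaturated chains included 1 that passed the test. Eci1 (chr17:24426641-24439348, plus strand), the enoyl-CoA isomerase that repositions double bonds, was at 103, 171 and 149 CPM in sham replicates 1, 2 and 3 and at 39.4, 84.7 and 55.8 CPM in VSG replicates 4, 5 and 6. VSG replicate 5 was the highest of its group and still below sham replicate 1. Eci1 was 2.35-fold lower (log2 fold change -1.23 ± 0.31 SE, adjusted p = 0.0434, edgeR). Decr1, the mitochondrial dienoyl-CoA reductase, had a log2 fold change of -0.89 with separate groups (272 to 397 CPM in sham, 119 to 249 in VSG) and an adjusted p of 0.0803 in edgeR. Leaving out any library but VSG replicate 5 ended the call of Eci1, at adjusted p-values from 0.0522 (without sham replicate 1) to 0.144 (without sham replicate 3). Electrons from these steps pass through Etfa, Etfb and Etfdh, the subunits of electron transfer flavoprotein and its oxidoreductase, whose log2 fold changes were -0.48, -0.18 and -0.46 and of which none passed. The counts of Etfb are uncertain, since 58.2% of its exon bases overlap Gm45233 and Mir7051 on the same strand.

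**Figure D2:**
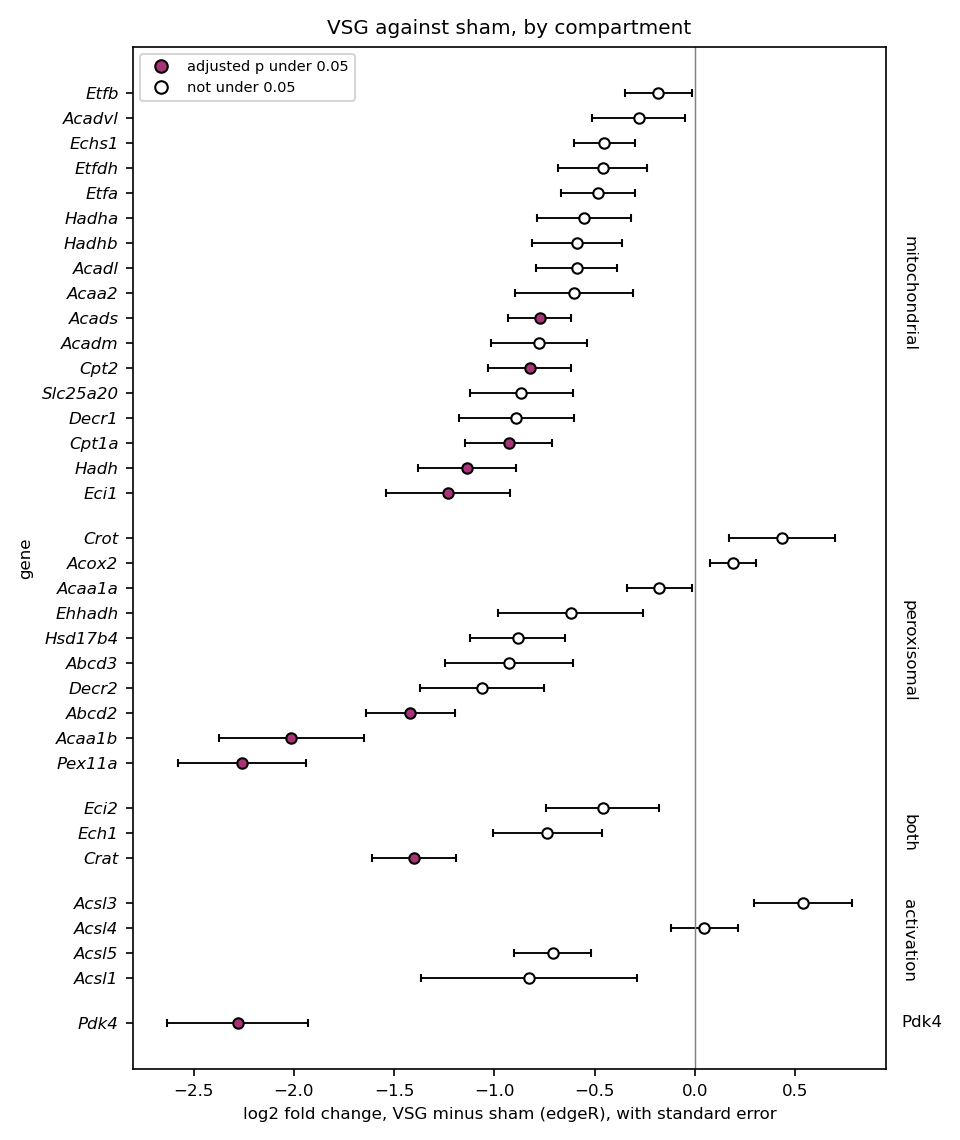
Points give the log2 fold change of each gene (VSG minus sham, edgeR) with its standard error as the bar, grouped by compartment, with filled points at an adjusted p under 0.05. All 17 mitochondrial values lie between -1.23 and -0.18, while the 10 peroxisomal values run from -2.26 to 0.43.

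Peroxisomal import was lower for 1 of 2 transporters. Abcd2 (chr15:91145871-91191799, minus strand), an importer of very-long-chain and polyunsaturated acyl-CoAs, was at 67.3, 81.8 and 67.7 CPM in sham replicates 1, 2 and 3 and at 21.2, 36.8 and 23.0 CPM in VSG replicates 4, 5 and 6. The highest VSG library was far below the lowest sham library, and Abcd2 was 2.67-fold lower (log2 fold change -1.42 ± 0.22 SE, adjusted p = 0.0150, edgeR). The call ended without sham replicate 3 (adjusted p = 0.0674) or VSG replicate 6 (0.0687). Abcd3, which carries branched and dicarboxylic acyl-CoAs, had a larger level and spread (703 to 1190 CPM in sham, 307 to 638 in VSG) with a log2 fold change of -0.93 and an adjusted p of 0.0933 in edgeR.

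The first enzymes described inside the peroxisome did not move together. Acox2, the oxidase of branched chains and bile acid intermediates, was at 221, 222 and 218 CPM in sham replicates 1, 2 and 3 and at 267, 227 and 260 CPM in VSG replicates 4, 5 and 6. On this TMM scale all VSG values lay above the sham values, by a log2 fold change of 0.19 ± 0.11 (SE) that did not pass the test (adjusted p = 0.280, edgeR). Scaled by total counts alone the groups overlapped (253, 205 and 238 CPM in sham libraries, 259, 227 and 233 CPM after VSG) and the log2 fold change was 0.05. Ehhadh, the L-bifunctional enzyme and a PPARα target, had 550, 638 and 677 CPM in sham livers and 228, 639 and 345 CPM after VSG. VSG replicate 5 stood among the sham libraries and the other two VSG libraries below all of them, so the log2 fold change of -0.62 ± 0.36 (SE) had an adjusted p of 0.266 in edgeR. Without VSG replicate 5 it was -1.14 with an adjusted p of 0.0270. Hsd17b4, the D-bifunctional enzyme, had separate groups (603 to 884 CPM in sham, 301 to 489 in VSG), a log2 fold change of -0.88 and an adjusted p of 0.0510 in edgeR, the gene nearest the threshold from outside. With all libraries it was called by DESeq2 (adjusted p = 0.00292) and in edgeR with total counts (0.0235) or no filter beyond 1 count (0.0318). It was also called in edgeR without VSG replicate 5 (0.0387).

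The 2 peroxisomal thiolase genes, which catalyse the last step, separated. Acaa1b (chr9:119148023-119157093, minus strand) was at 766, 863 and 1014 CPM in sham replicates 1, 2 and 3 and at 136, 344 and 175 CPM in VSG replicates 4, 5 and 6. No VSG library reached the lowest sham value, and Acaa1b was 4.04-fold lower (log2 fold change -2.01 ± 0.36 SE, adjusted p = 0.0200, edgeR). Its neighbour Acaa1a (chr9:119339676-119350299, plus strand) was at 120, 146 and 150 CPM in sham livers and 112, 149 and 108 CPM after VSG. VSG replicate 5 was within the sham range and the groups overlapped, with a log2 fold change of -0.18 ± 0.16 (SE, adjusted p = 0.472, edgeR). Per length, Acaa1b exceeded Acaa1a by an FPKM ratio of 14.3, 13.3 and 15.2 in sham replicates 1, 2 and 3 and of 2.74, 5.20 and 3.65 in VSG replicates 4, 5 and 6. The ratio fell from 14.3 ± 0.93 to 3.86 ± 1.24 (SD, n = 3), by -1.93 on the log2 scale, with an exact two-sided permutation p of 0.1, the smallest that 3 against 3 libraries can give. Summed, the pair was at 1020 ± 140 CPM in sham livers and 341 ± 133 CPM after VSG (SD, n = 3). Of 50-base words, 35.5% of those in Acaa1b also occur in Acaa1a, so reads could be assigned to the wrong gene of the pair. The call of Acaa1b ended when sham replicate 2 or 3 was left out (adjusted p = 0.0519 and 0.0899) and when VSG replicate 6 was (0.0855).

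**Figure D3:**
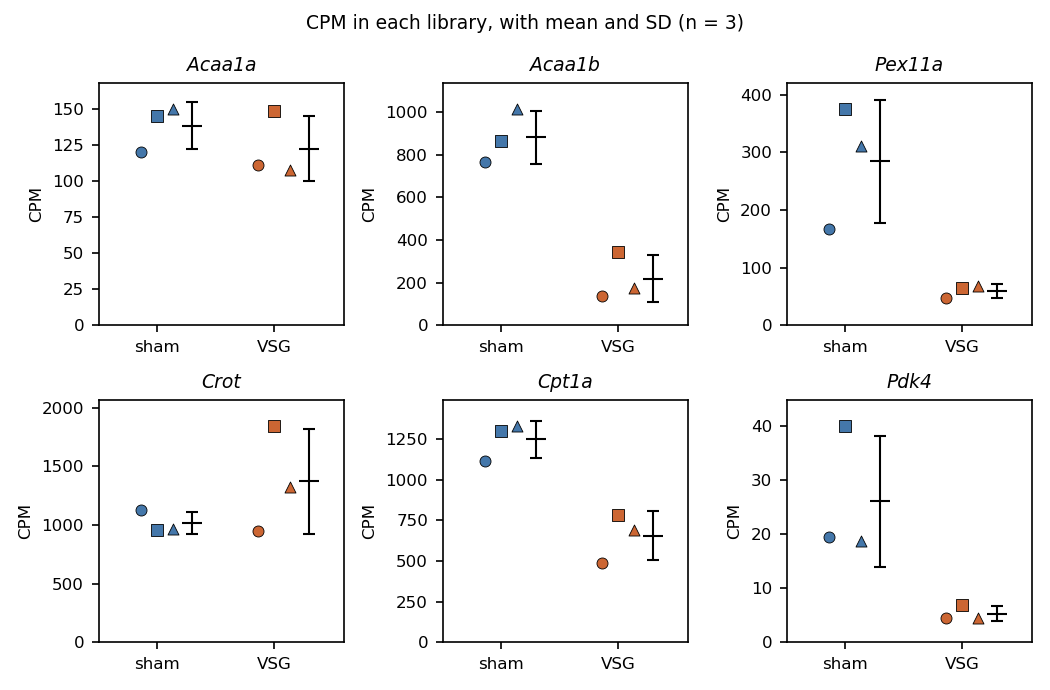
CPM of 6 genes in each library (circles, sham 1 and VSG 4; squares, sham 2 and VSG 5; triangles, sham 3 and VSG 6), with the mean and SD of 3 libraries beside them and axes from 0. Acaa1b, Pex11a, Cpt1a and Pdk4 have separate groups, whereas those of Acaa1a and Crot overlap.

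The promoters of this pair are shown because the ratio of their transcripts differed between the groups. The 250 bases before the RefSeq start (GRCm38.p6) lie at chr9:119341044-119341293 (plus strand) for Acaa1a, inside the wider gene span of the count table, and at chr9:119157094-119157343 (minus strand) for Acaa1b. Capitals mark CCAAT on either strand.
Acaa1a: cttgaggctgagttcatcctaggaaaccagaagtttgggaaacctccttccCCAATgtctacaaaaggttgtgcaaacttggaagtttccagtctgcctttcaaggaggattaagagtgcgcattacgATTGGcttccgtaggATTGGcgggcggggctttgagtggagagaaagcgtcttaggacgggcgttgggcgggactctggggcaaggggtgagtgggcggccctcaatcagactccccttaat
Acaa1b: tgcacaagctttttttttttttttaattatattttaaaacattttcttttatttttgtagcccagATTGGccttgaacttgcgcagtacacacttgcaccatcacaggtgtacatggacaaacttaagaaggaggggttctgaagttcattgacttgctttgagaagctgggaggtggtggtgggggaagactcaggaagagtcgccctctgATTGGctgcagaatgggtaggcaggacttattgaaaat
Over aligned columns 48.2% of bases were identical and the longest shared run was 8 bases, so the windows differ although the transcripts share sequence. CCAAT occurred 3 times in the window of Acaa1a and 2 times in that of Acaa1b, and at least once in 15 of the 30 members with a RefSeq promoter, beside 37.5% of all genes.

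PPARα with its partner RXRα is known to bind a direct repeat of AGGTCA spaced by 1 base (DR1), and this motif was searched on both strands from 250 bases before to 50 bases after the start. RefSeq promoters were matched for 30 of the 35 genes, all but Acaa2, Decr1, Abcd2, Hsd17b4 and Crat. No window held the motif with at most 1 mismatch, beside 0.644% of 27025 genes. With at most 2 mismatches 4 windows held it, beside 4.40% of genes, and they are shown with matching letters in capitals.
Slc25a20: AGGTgAaAGGTCg
Acox2: AGGaCAgAGGTgA
Echs1: AGGTCAcgGGTCc
Etfa: TtACCTtTGcCCT
They lie at chr9:108662142-108662154, chr14:8258818-8258830, chr7:140116492-140116504 and chr9:55512308-55512320 (GRCm38.p6, RefSeq), the last of them a match of the complementary strand. None of these 4 genes passed the test. A match is a similarity of letters, and these windows are short, so nothing about binding follows from them.

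The other peroxisomal genes differed widely from each other. Pex11a (chr7:79735957-79743131, minus strand), a membrane protein of peroxisome division that rises with PPARα agonists, was at 167, 375 and 311 CPM in sham replicates 1, 2 and 3 and at 46.4, 64.0 and 68.0 CPM in VSG replicates 4, 5 and 6. VSG libraries lay close together and all below sham replicate 1, the lowest sham library. Pex11a was 4.78-fold lower (log2 fold change -2.26 ± 0.32 SE, adjusted p = 0.0115, edgeR), a call that ended without sham replicate 3 (0.0604) or VSG replicate 6 (0.0576). Decr2, the peroxisomal dienoyl-CoA reductase, had separate groups (270 to 394 CPM in sham, 95.0 to 217 in VSG), a log2 fold change of -1.06 and an adjusted p of 0.0635 in edgeR. Crot, which turns the shortened products into carnitine esters for export, was at 1124, 959 and 964 CPM in sham livers and 949, 1842 and 1326 CPM after VSG. It was highest in VSG replicate 5 and the groups overlapped, with a log2 fold change of 0.43 ± 0.26 (SE, adjusted p = 0.281, edgeR).

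Of the genes whose products work in both organelles, Crat fell and Ech1 and Eci2 did not pass. Crat (chr2:30400471-30415813, minus strand), the carnitine acetyltransferase that buffers acetyl-CoA, was at 100, 131 and 129 CPM in sham replicates 1, 2 and 3 and at 38.0, 59.6 and 39.1 CPM in VSG replicates 4, 5 and 6. The groups were separate, and Crat was 2.64-fold lower (log2 fold change -1.40 ± 0.21 SE, adjusted p = 0.0133, edgeR), a call that ended without sham replicate 3 (0.0697) or VSG replicate 6 (0.0667). Ech1, a dienoyl-CoA isomerase, and Eci2, an enoyl-CoA isomerase, stood at -0.74 and -0.46 on the log2 fold change scale. VSG replicate 5 overlapped the sham libraries in both, as did VSG replicate 6 for Eci2. Scaled by total counts alone the groups of Ech1 were separate.

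Pdk4 (chr6:5483351-5496309, minus strand), which phosphorylates and inhibits pyruvate dehydrogenase, fell by about as much as Pex11a. It was at 19.5, 40.0 and 18.8 CPM in sham replicates 1, 2 and 3 and at 4.61, 6.88 and 4.57 CPM in VSG replicates 4, 5 and 6. Sham replicate 2 stood well above the other sham libraries, and all VSG libraries were below them. Pdk4 was 4.86-fold lower (log2 fold change -2.28 ± 0.35 SE, adjusted p = 0.0142, edgeR). The log2 fold change was -1.84 without sham replicate 2, where the call held at 0.0175. It ended without VSG replicate 6 (0.0695) and, at 0.05 and thus just at the threshold, without sham replicate 3.

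Set side by side, both compartments held lower and no higher calls, and the peroxisomal fold changes spanned a wider range. Of 17 mitochondrial genes 5 were called lower and 17 had a negative log2 fold change, with a median of -0.60. Of 10 peroxisomal genes 3 were called lower and 8 were negative, with a median of -0.91. All VSG libraries lay below all sham libraries in 11 mitochondrial and 6 peroxisomal genes. Over all genes tested, 7.87% were called lower and 19.8% had that order. Per library, the mitochondrial and peroxisomal medians of the log2 ratio to the sham mean were -0.97 and -1.52 in VSG replicate 4, -0.36 and -0.58 in replicate 5, and -0.66 and -0.85 in replicate 6. In each VSG library the peroxisomal median was the lower one. In sham replicates 1, 2 and 3 the pairs were -0.31 and -0.20, 0.23 and 0.12, and 0.04 and 0.02. The difference between the group medians was -0.30 and the SD of this difference between libraries 0.16. No p is given for it, since the members were chosen as a list. The lower peroxisomal median was a feature of the chosen members. Outside the 35 genes the median was -0.65 for other mitochondrial enzymes and -0.30 for other peroxisomal genes, the opposite order.

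The balance of summed levels between the compartments overlapped between the groups. Mitochondrial genes summed to 1819 ± 328 FPKM in sham and 1149 ± 294 FPKM in VSG livers (SD, n = 3), and peroxisomal genes to 1522 ± 179 and 871 ± 285 FPKM. The ratio of peroxisomal to mitochondrial FPKM was 0.892, 0.771 and 0.868 in sham replicates 1, 2 and 3 and 0.714, 0.816 and 0.718 in VSG replicates 4, 5 and 6. VSG replicate 5 lay above sham replicate 2, so the groups overlapped. On the CPM scale, which weights long transcripts more, the ratio was 0.845 ± 0.050 in sham and 0.908 ± 0.073 in VSG livers (SD, n = 3), the opposite direction. In FPKM the largest peroxisomal contributor in sham livers was Acaa1b, at 449 ± 63.9 FPKM, and in VSG livers Crot, at 252 ± 82.1 FPKM.

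Other genes of the same pathways were lower in part. Of 20 tested mitochondrial oxidation enzymes outside the 35 genes, 7 were lower and none higher, beside 7.87% and 6.79% of all genes tested. Their median log2 fold change was -0.65. Without sham replicate 3 or VSG replicate 6 the count was 2, and without sham replicate 2 or VSG replicate 4 it was 4. It was 10 with DESeq2 or total counts. The clearest was Acot2, a matrix acyl-CoA thioesterase, which fell from 31.4 ± 4.24 to 3.98 ± 1.05 CPM (SD, n = 3), a log2 fold change of -2.98 (adjusted p = 0.00197, edgeR), with all VSG libraries between 3.19 and 5.17 CPM. Acad12 and Acad10, acyl-CoA dehydrogenase family members, fell too, by 1.85 and 1.11 on the log2 scale (edgeR, adjusted p 0.00439 and 0.0127). Of 44 other peroxisomal genes 7 were lower and none higher, beside 7.87% and 6.79% of all genes tested, with a median of -0.30. Of these 44, none was lower in edgeR without sham replicate 3 or VSG replicate 6 (12 and 14 at an unadjusted p under 0.05), 3 without sham replicate 2 or VSG replicate 4 and 13 without VSG replicate 5, where 2 were higher. With total counts 14 were lower, and with DESeq2 12 were. Acot4, a peroxisomal thioesterase, fell from 230 ± 106 to 38.4 ± 10.4 CPM, and Pex19, a chaperone of membrane proteins, from 162 ± 15.6 to 88.6 ± 11.7 CPM (SD, n = 3; adjusted p = 0.0127 and 0.0156, edgeR). Acot2 and Acad12 stayed called in all 12 alternative fits. The calls of Acad10, Acot4 and Pex19 ended without sham replicate 3 (adjusted p = 0.0686, 0.0582 and 0.0818) or VSG replicate 6 (0.0620, 0.0677 and 0.0677).

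**Figure D4:**
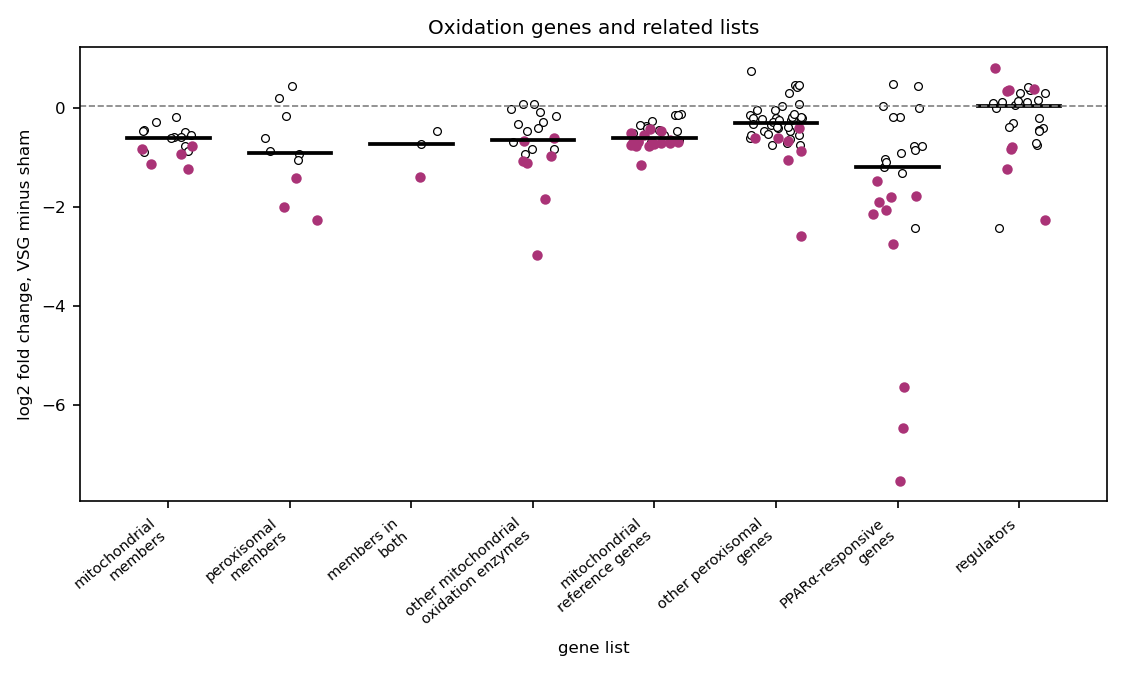
Points are the log2 fold changes of the tested genes of each list (filled at an adjusted p under 0.05 in edgeR), bars the list medians and the dashed line the median of all tested genes, 0.03. Mitochondrial lists sit at -0.60 to -0.65, peroxisomal members at -0.91, other peroxisomal genes at -0.30 and the regulators at 0.03. The lowest point of the PPARα list, Cidea, has VSG counts at or under 3, so its fitted value is no bound.

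Mitochondrial genes outside fatty acid oxidation were also called lower. Of 30 reference genes of the citric acid cycle, respiratory chain and mitochondrial import, 17 were lower and none higher. Over all genes tested, 7.87% were lower and 6.79% higher. All 30 reference genes had a negative log2 fold change. Their median was -0.61 beside -0.60 for the mitochondrial oxidation genes. In 25 of the 30 all VSG libraries lay below all sham libraries, beside 19.8% of all genes tested. Sdha, a subunit of succinate dehydrogenase, fell from 537 ± 69.4 to 315 ± 37.4 CPM and Dlst, of the oxoglutarate dehydrogenase complex, from 258 ± 28.6 to 152 ± 13.8 CPM (SD, n = 3; adjusted p = 0.0286 and 0.0191, edgeR). Lower calls were thus made for mitochondrial transcripts outside oxidation too. Without sham replicate 3 or VSG replicate 6 none of the 30 was called in edgeR, although 22 in each case were lower at an unadjusted p under 0.05. Of all genes, 0.748% and 0.812% were called lower in those fits. Without sham replicate 2 the count was 3 (beside 3.31% of all genes), without VSG replicate 4 it was 5 (3.95%), and with DESeq2 it was 25 (12.3%). The calls of Sdha and Dlst ended without sham replicate 2 (adjusted p = 0.0766 and 0.0542), sham replicate 3 (0.118 and 0.0930) or VSG replicate 6 (0.1 and 0.0836), and that of Sdha also without VSG replicate 4 (0.0662).

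Other liver genes known to respond to PPARα included larger falls. Of 25 tested outside beta-oxidation, 10 were lower and none higher, beside 7.87% and 6.79% of all genes tested. Their median log2 fold change was -1.21. Cidec, a lipid droplet protein, was at 77.8, 69.4 and 125 CPM in sham replicates 1, 2 and 3 and at 1.63, 0.939 and 0.477 CPM in VSG replicates 4, 5 and 6, and fell by 6.47 on the log2 scale (adjusted p = 0.00177, edgeR). Acot3, a peroxisomal thioesterase, fell from 54.1 ± 45.0 to 1.07 ± 0.38 CPM (SD, n = 3; adjusted p = 0.0107, edgeR), with sham libraries from 17.0 to 104 CPM. Cidea, of the same family as Cidec, was at 1.03, 11.8 and 15.1 CPM in sham replicates 1, 2 and 3. VSG libraries were at or under a floor of 3 counts per library (adjusted p = 0.0219, edgeR). The sham mean was 68.7-fold that floor, but sham replicate 1 lay well below this mean. The call of Acot3 ended without sham replicate 3 (0.0508) or VSG replicate 6 (0.0616), and that of Cidea without sham replicate 2 (0.0553), sham replicate 3 (0.0876), VSG replicate 4 (0.0673) or VSG replicate 6 (0.0918), and with limma-voom (0.108). Without sham replicate 3 or VSG replicate 6 the count of lower genes was 4 in each case, beside 0.748% and 0.812% of all genes. The median was -0.79 without sham replicate 2, where 7 were lower (beside 3.31% of all genes), and -1.72 without VSG replicate 5, where 13 were (9.59%).

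The regulators of fatty acid oxidation held lower and higher calls, with a median near that of all genes. Of 28 tested, 4 were lower and 4 higher, beside 7.87% and 6.79% of all genes tested, with a median log2 fold change of 0.03. With total counts 5 were lower and 1 higher (median -0.11). The count of higher genes was 1 without VSG replicate 4 or 5 and 0 without any other single library, where 4 to 5 were higher at an unadjusted p under 0.05 in edgeR. The count of lower genes was 2 without sham replicate 3 (beside 0.748% of all genes) and 7 without VSG replicate 5 (9.59%). Ppara, the receptor itself, was at 188, 285 and 276 CPM in sham replicates 1, 2 and 3 and at 68.7, 195 and 179 CPM in VSG replicates 4, 5 and 6. VSG replicate 5 lay above sham replicate 1, and the log2 fold change of -0.76 ± 0.39 (SE) had an adjusted p of 0.217 in edgeR. Its partner Rxra was at 454 ± 49.5 CPM in sham livers and 488 ± 71.0 CPM after VSG (SD, n = 3; adjusted p = 0.689, edgeR). Ppargc1a, a coactivator of mitochondrial genes, fell from 20.9 ± 3.89 to 12.1 ± 2.02 CPM (SD, n = 3; log2 fold change -0.79, adjusted p = 0.0371, edgeR). Its call ended without sham replicate 2 (0.0969), sham replicate 3 (0.131), VSG replicate 4 (0.0776) or VSG replicate 6 (0.0907).

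Both acetyl-CoA carboxylases, which make the malonyl-CoA that inhibits CPT1, were lower. Acacb, the form on the mitochondrial membrane, was at 56.0, 79.2 and 59.4 CPM in sham replicates 1, 2 and 3 and at 13.1, 13.4 and 14.01 CPM in VSG replicates 4, 5 and 6. The VSG values were almost alike and far below the sham values, with a log2 fold change of -2.27 ± 0.15 (SE, adjusted p = 0.00177, edgeR) that stayed called in all 12 alternatives. Acaca, the cytosolic form, fell by 0.84 on the log2 scale (adjusted p = 0.00809, edgeR), a call that ended without sham replicate 3 (0.0519). Pparg fell from 29.0 ± 1.51 to 12.4 ± 1.87 CPM (SD, n = 3; adjusted p = 0.00692, edgeR) and stayed called in all 12. Among the genes that rose, Sirt1, a deacetylase, went from 15.5 ± 0.68 to 27.2 ± 5.33 CPM (SD, n = 3; adjusted p = 0.0217, edgeR). Its call ended without sham replicate 1 (0.0550), sham replicate 2 (0.0627), sham replicate 3 (0.107) or VSG replicate 6 (0.0597). Crebbp and Ep300, acetyltransferase coactivators, rose by 0.38 and 0.37 on the log2 scale (edgeR, adjusted p 0.0435 and 0.0393), and both calls ended when any 1 of the 6 libraries was left out (0.0580 to 0.143). They also ended with total counts (0.265 for Crebbp, 0.212 for Ep300) and with no filter beyond 1 count (0.109 and 0.128).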

How the data were processed

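Liver polyA RNA of 3 sham and 3 VSG mice was analysed. Per the study's methods and the submitters' processing notes, the authors made strand-specific libraries, used FastQC 0.10.1, aligned reads to mm10 with STAR 2.6.0 and deposited raw counts per gene from featureCounts. The processing notes give featureCounts as 2.0.3, whereas the methods name another Subread release. Annotation release, strand option and treatment of multi-mapping reads were not given in the sources used here, so counts of overlapping and near-identical genes are uncertain. The authors' table also held a gene length, an other value used only for FPKM. Symbols came from GENCODE M21 (GRCm38), to which 55144 of 55385 identifiers were matched and 241 were not.

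Counts were tested with edgeR 4.0.16 (R 4.3.3). Genes passing filterByExpr (minimum count 10, total 15), 14454 including all 35 members, entered a quasi-likelihood model with group as the only term and TMM factors (0.897 to 1.15), with Benjamini-Hochberg adjustment over all of them. A log2 fold change divided by the root of its F statistic gave the SE. The pipeline was tested on simulated data. CPM used raw totals times TMM factors, and a floor of 3 counts covers counting error only. Libraries of a group differed beyond counting noise (chi-square per degree of freedom 17.2 to 130). Alternatives were DESeq2 1.42.0, limma-voom (limma 3.58.1), RLE factors, total counts, other filters and leaving out each library. Promoters and motifs were read from RefSeq with Python 3.11.15.

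Members and lists (other mitochondrial and peroxisomal genes, mitochondrial reference genes, PPARα-responsive genes, regulators and cell type markers) were chosen with earlier results of these data known. All 35 members could be named; library values were given for called members and for Cpt1a, Acsl1, Acox2, Ehhadh, Acaa1a, Acaa1b, Hadha, Acadm and Pdk4. From other lists Ppara, Rxra, Ppargc1a and Cpt1b were named, and per list up to 3 called genes with the largest rise and fall at a mean of at least 1 CPM; 3 genes that this rule also names are not reported here. Library values of Crot and the ranges of other members were added after their values were seen.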

Additional observations from a re-analysis of the deposited data

How the results depend on the processing

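Of 420 results of the 35 genes under 12 alternatives, 351 kept direction and call, 34 lost and 31 gained a call, and 4 reversed. DESeq2 called 3288 genes, against 2118 with edgeR, and 20 members lower (12.3% of all genes), against 10. Total counts called 19 members lower (10.5% of all genes) and moved the median of all tested genes from 0.03 to -0.11. With no filter beyond 1 count 15 were lower (4.70%). With limma-voom, RLE factors or at least 10 counts in every library 10 were (7.26%, 7.94% and 8.08% of all genes). Leaving out 1 library gave 159 to 2732 genes and 0 to 17 members called, and no member was called higher in any fit. The mitochondrial median ranged from -0.90 (without VSG replicate 5) to -0.45, the peroxisomal from -1.16 to -0.69 and their difference from -0.33 to -0.24. The ratio of peroxisomal to mitochondrial levels, lower after VSG in FPKM, reversed in CPM (log2 difference 0.10), since the scales weight genes by length differently. Acsl4 (0.05) reversed with total counts (-0.10) and without sham replicate 3 (-0.03), VSG replicate 4 (-0.074) or VSG replicate 6 (-0.00038), and reached 0.18 without VSG replicate 5. Rxra (0.10) reversed with total counts (-0.027) and without VSG replicate 5 (-0.031), and reached 0.20 without VSG replicate 4. The causes of the other changes were not tested. No paired analysis was possible because the sample numbers (1 to 3 and 4 to 6) are not shared between the groups. With 3 libraries a group, calls near the threshold rest on few degrees of freedom, and differences of members that were not called are not shown to be absent.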
